A study of Homo sapiens with 28 samples.

Results

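In ChIP-seq an antibody pulls a protein down with the DNA it is fixed to, and peaks are the places where the sequenced fragments of that DNA pile up. HNF4A and KLF5 were mapped in this way in GP5d cells, a line established from a human colon adenocarcinoma, transfected for 72 hours with 50 nM of a neutral control siRNA. All rows of both lists were taken, which gave 11122 HNF4A peaks and 7791 KLF5 peaks, 18913 of the 393268 peaks in the 22 lists of the series. Each list came from 1 library made with 5 µg of antibody, so there was no replicate check and no test between libraries. Libraries of both factors from GP5d cells transfected with siRNA against RAD21, also at 50 nM for 72 hours, are used in later paragraphs. The intervals given here are 95% intervals for counting error only, and neighbouring peaks are not independent.

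HNF4A is a nuclear receptor that binds DNA as a homodimer at direct repeats, and it maintains the differentiated state of intestinal and hepatic epithelium. KLF5 is a zinc finger factor that binds GC-rich and CACCC-type elements and is known for its role in the proliferating cells of the intestinal crypt. The other proteins mapped in the same cells were the cohesin ring subunits RAD21 and SMC3, the cohesin loader NIPBL, the loop boundary factor CTCF, the enhancer-associated histone mark H3K4me1, the growth regulator MYC, the AP-1 subunit JUND, the repressor REST and the ciliary regulator RFX2. The comparison asks which sites the 2 epithelial factors had in common, how close their summits lay, and which of the other proteins accompanied each class of site.

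The HNF4A and KLF5 libraries were of like depth, with 8949817 tags after filtering for HNF4A and 9257960 for KLF5, and both were called against the same rabbit immunoglobulin G (IgG) library of 8916252 tags. The control ChIP libraries as a whole held 3629966 to 19926326 tags. Repeated positions made up 19.6% of the HNF4A tags and 51.0% of the KLF5 tags before filtering. The false discovery rate (FDR), which MACS estimates by exchanging the roles of ChIP and IgG, was under 5% for 5343 HNF4A peaks (48%) and 5983 KLF5 peaks (76.8%), so the longer list held the larger share of peaks above that rate. No JUND or NIPBL peak had an FDR under 5%. From general knowledge, the catalogue number given for the H3K4me1 library belongs to an antibody against total histone H3, and the number given for MYC belongs to an antibody raised in mouse although rabbit is named in the title. What these antibodies bound is not settled here.

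Most sites belonged to a single factor. A KLF5 peak overlapped 1863 of the 11122 HNF4A peaks by at least 1 bp (16.8%, interval 16.1 to 17.5), and an HNF4A peak overlapped 1868 of the 7791 KLF5 peaks (24.0%, 23 to 24.9). That left 9259 HNF4A-only peaks (83.2%) and 5923 KLF5-only peaks (76.0%). The shared peaks joined into 1844 regions, of which 1806 consisted of exactly 1 HNF4A and 1 KLF5 peak. The HNF4A peaks covered 18.2 Mb, 0.662% of the effective genome size in the file headers, and the KLF5 peaks covered 12.9 Mb, 0.471% of it. The share depended on which peaks were kept. Peak strength is given as −10 × log10 of the authors' MACS p, a score that starts at 50. With both lists cut to scores of at least 100 it was 8.78% of HNF4A peaks and 18.3% of KLF5 peaks. With both cut to an FDR under 5% it was 16.2% and 14.7%, and with both cut to their 5000 strongest peaks 14.7% and 14.9%. These cuts also shorten the list that can overlap. Against the uncut other list, 1015 of the 5273 HNF4A peaks and 817 of the 2546 KLF5 peaks with a score of at least 100 were shared.

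Shared peaks were stronger and wider than peaks of a single factor. The median score was 111 for shared HNF4A peaks and 92.5 for HNF4A-only peaks, and 90.4 for shared KLF5 peaks and 74.5 for KLF5-only peaks. The median width was 1773 bp for shared HNF4A peaks and 1442 bp for HNF4A-only peaks, against 1678 bp for shared KLF5 peaks and 1443 bp for KLF5-only peaks. Fold enrichment over the IgG background had the opposite order in the HNF4A list, with medians of 8.90 for shared and 9.57 for HNF4A-only peaks. In the KLF5 list it had the same order as score and width, with medians of 7.92 for shared and 7.66 for KLF5-only peaks.

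The shared fraction was higher among strong peaks in both lists. In the weakest decile of HNF4A peaks by score 11.2% were shared (9.44 to 13.2), in the second to the ninth decile 13.2% to 17.9%, and in the strongest decile, with scores of 356 and above, 27.5% (24.9 to 30.2). Among KLF5 peaks 17.7% (15.1 to 20.6) were shared in the weakest decile, 15.1% in the second and 38.1% (34.7 to 41.6) in the strongest, whose scores began at 193. Of the 100 strongest peaks of each list, 36 HNF4A peaks and 41 KLF5 peaks were shared.

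**Figure D1:**
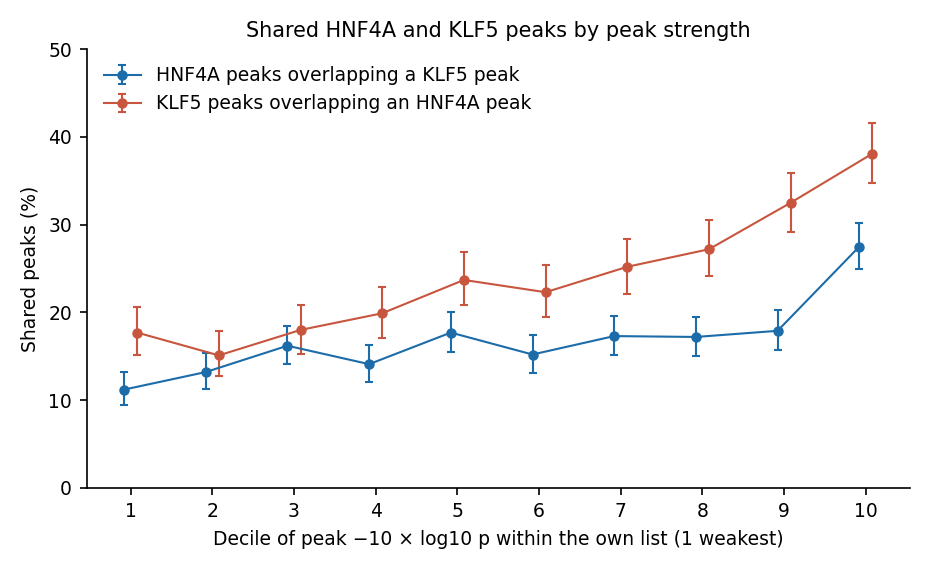
Share of HNF4A peaks that overlapped a KLF5 peak and share of KLF5 peaks that overlapped an HNF4A peak (y axis, percent) by decile of −10 × log10 p within the own list (x axis, 1 weakest). Points are shares and bars are 95% Clopper-Pearson intervals; the HNF4A share is 11.2% in the first decile and 27.5% in the tenth, and the KLF5 share is 17.7% in the first and 38.1% in the tenth.

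At shared sites the strength of one factor's peak said little about that of the other. Over the 1887 overlapping pairs, Spearman's rho of the HNF4A score with the KLF5 score was 0.0386, and rho of the fold enrichments was 0.109, given as a description of pairs that share cells and IgG library. Tag numbers and widths were related, with rho of 0.555 and 0.560, and both quantities grow with the length called. The HNF4A peak had the higher score in 1106 pairs (58.6%). Its score was at least 4 times that of the KLF5 peak in 283 pairs, and the KLF5 score was at least 4 times that of the HNF4A peak in 76. Only 10 pairs had both scores at 400 or above.

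Where the factors shared a site, their summits lay close together. The median distance between an HNF4A summit and the nearest KLF5 summit was 119 bp at shared HNF4A peaks (quartiles 47.0 and 296). The KLF5 summit lay within 50 bp at 491 of these 1863 peaks (26.4%), within 100 bp at 847 (45.5%, 43.2 to 47.8), within 250 bp at 1338 (71.8%) and within 500 bp at 1556 (83.5%). For scale, the fragment length that MACS estimated was 295 bp for HNF4A and 304 bp for KLF5. Shared peaks with summits over 500 bp apart, 331 of the pairs, were wide, with a median HNF4A width of 2389 bp, against 1648 bp for the 847 pairs with summits within 100 bp.

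By definition no peak of a single factor overlapped a peak of the other, so most close summits were left out in advance. The median distance to the nearest summit of the other factor was 90084 bp for HNF4A-only peaks and 51028 bp for KLF5-only peaks. A different measure, the median gap between consecutive summits of the same list, was 94686 bp for HNF4A and 106877 bp for KLF5. These gaps cannot be set against the distances above, which run to the nearer summit of the other list on either side. A KLF5 peak lay within 1000 bp of 145 HNF4A-only peaks (1.57%) and within 10000 bp of 1074 (11.6%). An HNF4A peak lay within 1000 bp of 147 KLF5-only peaks (2.48%) and within 10000 bp of 1036 (17.5%). HNF4A-only peaks with a KLF5 peak within 10000 bp had RAD21 at 21.4% (19 to 24.0), against 22.4% (21.5 to 23.3) of those farther away, and H3K4me1 at 92.7% (91.0 to 94.2) against 85.4% (84.6 to 86.1). MYC was found at 28.7% of the near ones (26.0 to 31.5) and 21.3% of the farther ones (20.4 to 22.2), NIPBL at 27.9% (25.3 to 30.7) and 24.7% (23.8 to 25.7), and SMC3 at 27.2% and 23.9%. Among KLF5-only peaks, H3K4me1 was found at 85.1% (82.8 to 87.2) of those with an HNF4A peak within 10000 bp and at 70.0% (68.7 to 71.3) of those without. NIPBL was found at 33.7% (30.8 to 36.7) and 27.4% (26.2 to 28.7) of these KLF5-only peaks, MYC at 43.3% (40.3 to 46.4) and 38.4% (37.1 to 39.8), and SMC3 at 36.8% (33.8 to 39.8) and 31.1% (29.8 to 32.4).

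NIPBL, MYC, SMC3 and RAD21 summits lay close to both factors more often than the factors' summits lay close to each other. A NIPBL summit lay within 250 bp of 24.7% of all HNF4A summits (23.9 to 25.5) and 30.2% of all KLF5 summits (29.2 to 31.2). A MYC summit did so for 18.8% of HNF4A summits (18.1 to 19.5) and 32.5% of KLF5 summits (31.4 to 33.5). For SMC3 the shares were 17.3% and 23.3%, and for RAD21 15.8% and 18.7%. The counterpart summit lay that close for 12% of HNF4A and 17.2% of KLF5 summits, and a CTCF summit for 5.51% of HNF4A and 9.92% of KLF5 summits. These lists differ in length, from 2078 RFX2 to 61108 H3K4me1 peaks, so a longer list has more chances to lie close. NIPBL (11694 peaks), MYC (13589), RAD21 (36204) and SMC3 (38799) all had longer lists than HNF4A and KLF5. The shares within 250 bp were not corrected for length. Per 1000 peaks of the other list, the overlapped share of HNF4A peaks was 0.727% for RAD21, 0.761% for SMC3, 2.17% for MYC and 2.79% for NIPBL. KLF5 had 2.15% by that measure. For KLF5 peaks it was 0.818% for RAD21, 0.973% for SMC3, 3.36% for MYC and 3.29% for NIPBL, against 2.16% for HNF4A. RAD21 and SMC3 thus lay below the counterpart factor once list length was counted. REST, with 4069 peaks, had a summit within 250 bp of 0.477% of HNF4A and 0.513% of KLF5 summits. RFX2 did so for 0.719% of HNF4A and 1.45% of KLF5 summits.

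**Figure D2:**
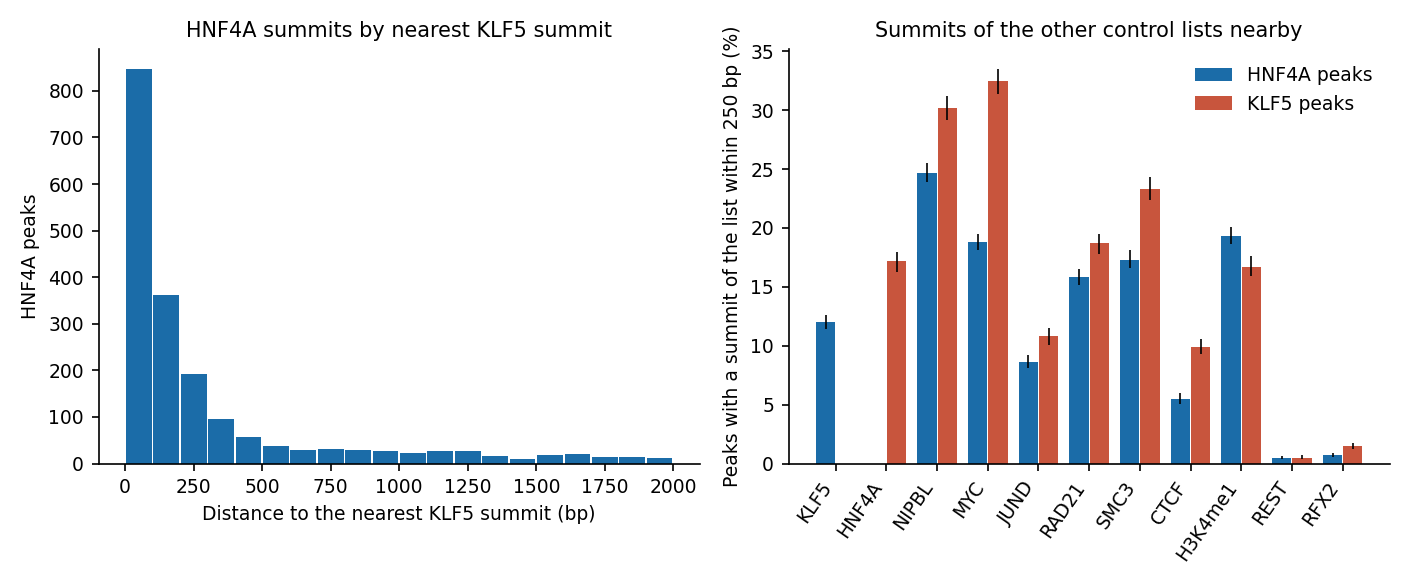
Left, HNF4A peaks (y axis, number) by distance to the nearest KLF5 summit (x axis, bp, in steps of 100 bp up to 2000 bp). Right, share of HNF4A and of KLF5 peaks (y axis, percent, bars with 95% Clopper-Pearson intervals) that have a summit of each other control list within 250 bp; MYC is within 250 bp of 18.8% of HNF4A and 32.5% of KLF5 summits.

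RAD21, SMC3, NIPBL, H3K4me1, MYC and JUND were each found more often at shared peaks than at peaks of a single factor in both lists, and CTCF in the HNF4A list, with intervals of the difference clear of 0. NIPBL, which loads cohesin, overlapped 70.0% of shared HNF4A peaks (67.9 to 72.1) and 25.1% of HNF4A-only peaks (24.2 to 26.0), a difference of 44.9 percentage points (42.6 to 47.1). On the KLF5 side it overlapped 69.9% of shared peaks and 28.5% of KLF5-only peaks, a difference of 41.4 points (39.0 to 43.7). Over whole lists the NIPBL share was 32.6% of HNF4A and 38.5% of KLF5 peaks. MYC overlapped 65.8% of shared HNF4A peaks and 22.1% of HNF4A-only peaks, a difference of 43.6 points (41.3 to 45.9), and 65.8% of shared KLF5 peaks and 39.3% of KLF5-only peaks, a difference of 26.5 points (24.0 to 29.0). Its share of whole lists was 29.4% for HNF4A and 45.6% for KLF5. With NIPBL peaks scoring at least 100 the NIPBL gaps were 31.7 points in the HNF4A list and 29.0 in the KLF5 list. With MYC peaks scoring at least 100 the MYC gaps were 29.8 and 18.4 points.

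Cohesin followed the same order at shared sites. RAD21 overlapped 46.3% of shared HNF4A peaks and 22.3% of HNF4A-only peaks, a difference of 24.0 points (21.6 to 26.4), with 26.3% over all HNF4A peaks. It overlapped 46.1% of shared KLF5 peaks and 24.4% of KLF5-only peaks, a difference of 21.7 points (19.2 to 24.2), with 29.6% over all KLF5 peaks. SMC3, the partner of RAD21 in the ring, overlapped 55.6% of shared HNF4A and 24.3% of HNF4A-only peaks, a difference of 31.3 points (28.9 to 33.7), and 55.8% of shared KLF5 and 32.1% of KLF5-only peaks, a difference of 23.7 points (21.1 to 26.2). SMC3 overlapped 29.5% of all HNF4A and 37.8% of all KLF5 peaks. The gaps were smaller when peaks of the target needed a score of at least 100, with 13.0 and 10.0 points for RAD21 and 19.1 and 13.8 for SMC3, each against the single-factor peaks of the same list.

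CTCF, which marks loop boundaries, had a gap clear of 0 in the HNF4A list but not in the KLF5 list, and the difference between these gaps was not tested. It overlapped 23.8% of shared HNF4A peaks (21.9 to 25.8) and 13.2% of HNF4A-only peaks (12.5 to 13.9), a difference of 10.6 points (8.63 to 12.7), which was 5.45 points (3.76 to 7.26) for CTCF peaks with a score of at least 100. On the KLF5 side the shares were 23.9% of shared peaks and 22.5% of KLF5-only peaks, and the difference of 1.42 points had an interval that reached 0 (−0.745 to 3.67). Within quintiles of KLF5 peak score that difference was 0.249 points (−1.97 to 2.47), and for CTCF peaks with a score of at least 100 it was −0.919 (−2.78 to 1.04). Whole lists had CTCF at 15.0% of HNF4A and 22.8% of KLF5 peaks. The CTCF list, like that of RFX2, was called against a goat IgG library of 3914714 tags. HNF4A, KLF5, RAD21, SMC3, NIPBL, H3K4me1, MYC and JUND were called against the rabbit IgG library. Whether this bears on the CTCF gaps was not tested.

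H3K4me1 was found at nearly all shared sites, with 95.5% of shared HNF4A peaks and 95.7% of shared KLF5 peaks. It overlapped 86.2% of HNF4A-only peaks, 9.25 points (8 to 10.4) fewer than shared HNF4A peaks, and 72.6% of KLF5-only peaks, 23 points (21.5 to 24.5) fewer than shared KLF5 peaks. The HNF4A gap was 2.80 points (1.4 to 3.95) among HNF4A peaks with a score of at least 100. H3K4me1 overlapped 87.8% of all HNF4A and 78.2% of all KLF5 peaks. JUND overlapped 27.7% of shared HNF4A and 9.14% of HNF4A-only peaks, a difference of 18.6 points (16.5 to 20.7), and 27.8% of shared KLF5 and 10.9% of KLF5-only peaks, a difference of 16.9 points (14.8 to 19.1). With JUND peaks scoring at least 100 these were 8.55 and 8.58 points, and over whole lists JUND overlapped 12.2% of HNF4A and 15.0% of KLF5 peaks.

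**Figure D3:**
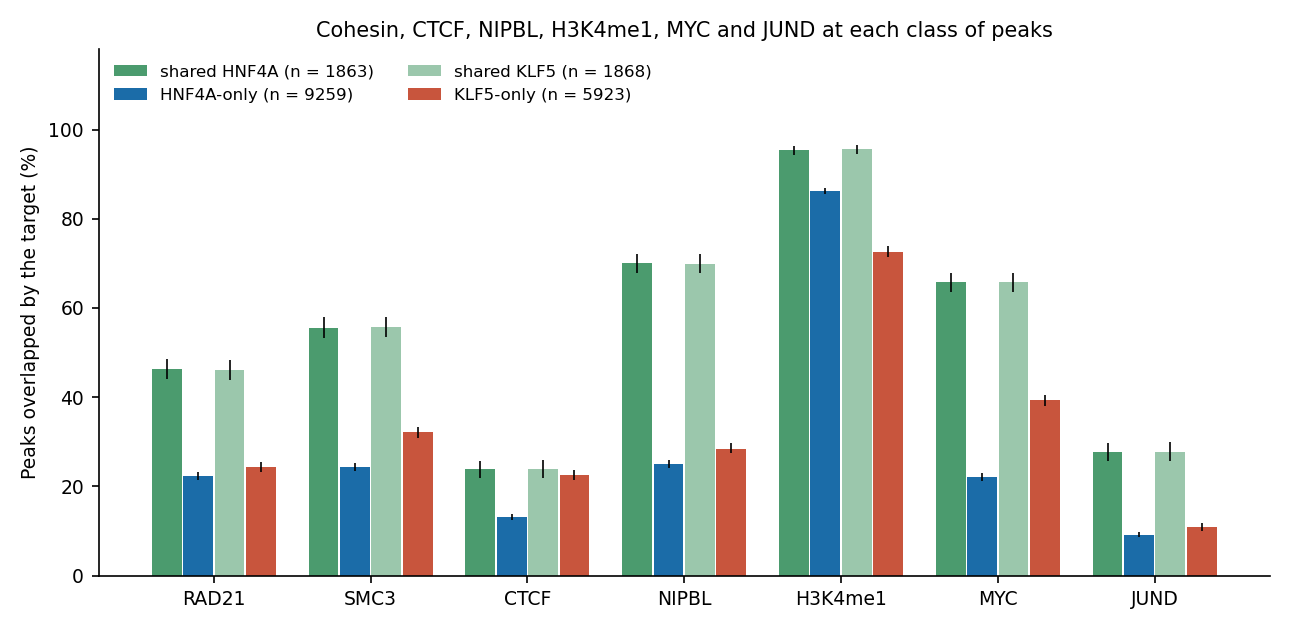
Share of peaks (y axis, percent) overlapped by a peak of each target (x axis) for shared HNF4A, HNF4A-only, shared KLF5 and KLF5-only peaks. Bars are shares with 95% Clopper-Pearson intervals; NIPBL, for example, is found at 70.0% of shared HNF4A peaks and 25.1% of HNF4A-only peaks, whereas CTCF is found at 23.9% of shared KLF5 and 22.5% of KLF5-only peaks.

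For NIPBL and MYC the shared HNF4A peaks had the higher share in every quintile of the HNF4A score. In the weakest quintile of the HNF4A list NIPBL overlapped 60.7% of shared peaks (54.6 to 66.5) and 19.6% of HNF4A-only peaks (17.9 to 21.4), and in the strongest quintile 72.9% (68.8 to 76.7) and 35.1% (32.8 to 37.4). MYC overlapped 61.4% of shared and 16.6% of HNF4A-only peaks in the weakest quintile, and 67.9% and 31.8% in the strongest. In the strongest quintile of the HNF4A list H3K4me1 overlapped 97.6% of shared peaks (95.9 to 98.8) and 97.6% of HNF4A-only peaks (96.7 to 98.2), whereas in that of the KLF5 list it overlapped 96.5% of shared peaks (94.7 to 97.9) and 80.8% of KLF5-only peaks (78.2 to 83.1). Width was a further difference between the classes, and with every peak cut to at most 250 bp on each side of its summit, within quintiles of score, the NIPBL gap was 42.4 points (40.0 to 44.7) on the HNF4A side and 37.5 (35.1 to 39.9) on the KLF5 side.

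Shared sites were also split by the distance between the summits and by the balance of the factors. NIPBL overlapped 73.8% of pairs with summits within 100 bp (70.7 to 76.7) and 64.7% of pairs with summits over 500 bp apart (59.2 to 69.8). RAD21 overlapped 46.9% of the close pairs (43.5 to 50.3) and 44.1% of the far ones (38.7 to 49.6). MYC and CTCF had the other order, with MYC at 64.2% of close (60.9 to 67.5) and 71.0% of far pairs (65.8 to 75.8), and CTCF at 22% (19.2 to 24.9) and 29.9% (25 to 35.2). The far pairs were also the wider ones. In the 76 pairs whose KLF5 score was at least 4 times the HNF4A score, MYC was found at 80.3% (69.5 to 88.5) and NIPBL at 84.2% (74.0 to 91.6). In the 283 pairs with the opposite balance MYC was found at 63.3% (57.3 to 68.9) and NIPBL at 69.6% (63.9 to 74.9). By KLF5 score alone, MYC was found at 51.6% of shared KLF5 peaks in the weakest quintile and 80.4% in the strongest. NIPBL was found at 58.6% and 82.7% of them. The balance of the factors was not separated from the strength of the KLF5 peak.

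Sites of HNF4A alone and of KLF5 alone also differed from each other. HNF4A-only peaks had H3K4me1 more often, by 13.6 percentage points (12.3 to 14.9), and MYC, CTCF, SMC3, NIPBL, RAD21 and JUND less often. The difference, HNF4A-only minus KLF5-only, was −17.1 points for MYC (−18.6 to −15.6), −9.31 for CTCF (−10.6 to −8.05), −7.79 for SMC3 (−9.27 to −6.32) and −3.43 for NIPBL (−4.89 to −1.99). It was small for RAD21, at −2.13 (−3.52 to −0.749), and for JUND, at −1.79 (−2.79 to −0.808). Among peaks with a score of at least 100 the gap was wider for MYC, at −26.3, NIPBL, at −11.2, and JUND, at −5.24, whereas for RAD21 it was −1.75 with an interval that reached 0 (−4.23 to 0.678). Within quintiles of the scores of both lists pooled, the difference was −5.98 for NIPBL, −3.20 for RAD21 and −2.72 for JUND. With JUND peaks scoring at least 100 the JUND difference was 0.00346 (−0.541 to 0.524).

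Sites with both cohesin subunits were split by the presence of CTCF. RAD21 and SMC3 together, without CTCF, were found at 8.24% of HNF4A-only peaks (7.69 to 8.82) and 7.14% of KLF5-only peaks (6.50 to 7.83). RAD21 and SMC3 together with CTCF were found at 8.39% of HNF4A-only peaks (7.83 to 8.98) and 12.9% of KLF5-only peaks (12.1 to 13.8). At shared HNF4A peaks cohesin without CTCF was the more frequent form, with 22.6% (20.7 to 24.6) against 15.9% (14.3 to 17.6) for cohesin with CTCF. The median score of the CTCF peaks was 164 at shared HNF4A, 296 at HNF4A-only and 270.4 at KLF5-only peaks, and their median percentile rank in the CTCF list was 35.6 at shared HNF4A, 50.1 at HNF4A-only and 47.8 at KLF5-only peaks. NIPBL peaks had the other order, with median NIPBL scores of 109 at shared HNF4A, 81.4 at HNF4A-only and 84.9 at KLF5-only peaks.

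Counted over the 9 other control targets, shared HNF4A peaks had 3.89 ± 1.74 further targets per peak (mean ± SD over peaks), HNF4A-only peaks 2.05 ± 1.61 and KLF5-only peaks 2.34 ± 1.75. At least 5 further targets were found at 40.3% of shared HNF4A peaks (38.1 to 42.6), 10.1% of HNF4A-only peaks (9.48 to 10.7) and 13.4% of KLF5-only peaks (12.6 to 14.3). H3K4me1 with no other target was the most frequent state of HNF4A-only peaks, at 40.0% (39.0 to 41.0), and was found at 19% of KLF5-only peaks (18.1 to 20.1) and 8.37% of shared HNF4A peaks (7.16 to 9.72). No further target at all was found at 1.23% of shared HNF4A, 10.3% of HNF4A-only and 14.8% of KLF5-only peaks. Without H3K4me1, NIPBL and JUND, which are the list with the total H3 catalogue number and the lists with no peak at an FDR under 5%, the means over the remaining 6 targets were 1.95 for shared HNF4A, 0.844 for HNF4A-only and 1.22 for KLF5-only peaks.

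**Figure D4:**
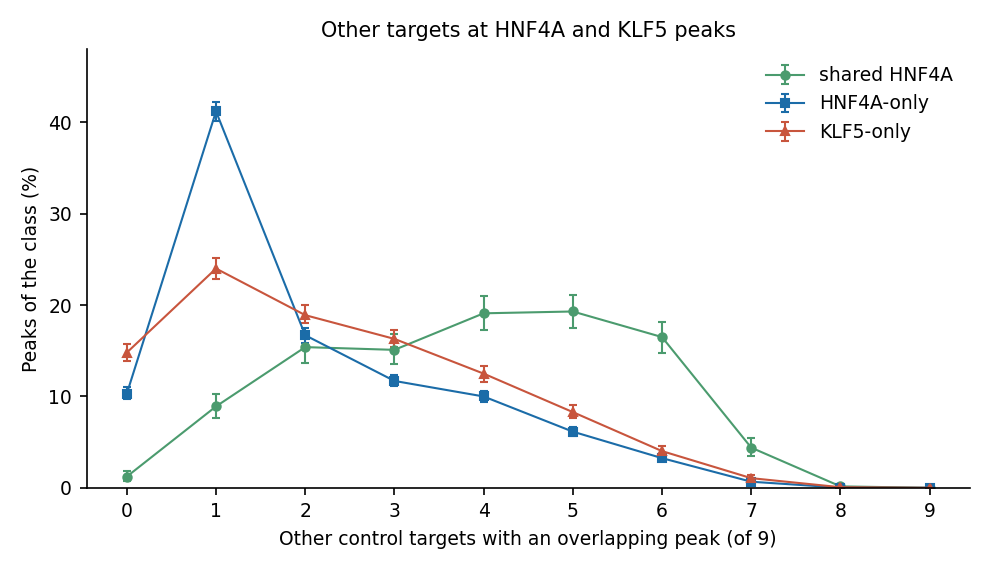
Share of shared HNF4A, HNF4A-only and KLF5-only peaks (y axis, percent, with 95% Clopper-Pearson intervals) by the number of the 9 other control targets with an overlapping peak (x axis). HNF4A-only peaks have a maximum of 41.2% at 1 target, KLF5-only peaks of 24.0% at 1 target, and shared HNF4A peaks of 19.3% at 5 targets.

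REST and RFX2 were rare at every class of site. REST overlapped 1.34% of shared HNF4A peaks (0.870 to 1.97), 1.32% of HNF4A-only peaks (1.10 to 1.57) and 1.23% of KLF5-only peaks (0.967 to 1.55), with 1.32% over all HNF4A and 1.26% over all KLF5 peaks. RFX2 overlapped 2.63% of shared HNF4A (1.95 to 3.46), 1.12% of HNF4A-only (0.919 to 1.36) and 2.65% of KLF5-only peaks (2.26 to 3.09), with 1.38% over all HNF4A and 2.66% over all KLF5 peaks. Seen from the RFX2 list, HNF4A overlapped 7.41% of its 2078 peaks (6.32 to 8.62) and KLF5, with the shorter list, 9.91% (8.66 to 11.3). Of the 13589 MYC peaks HNF4A overlapped 24.0% (23.3 to 24.7) and KLF5 26.1% (25.4 to 26.9), and of the 4678 JUND peaks HNF4A overlapped 29.1% (27.8 to 30.4) and KLF5 25% (23.8 to 26.3).

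The factors were spread unevenly over the chromosomes. For HNF4A 360 peaks (3.24%, 2.92 to 3.58) and for KLF5 492 peaks (6.31%, 5.78 to 6.88) lay on chromosome 19, the chromosome densest in genes, a difference of −3.08 percentage points (−3.72 to −2.45). The ratio of HNF4A to KLF5 peaks was 0.732 there and 1.43 over the whole lists. Chromosome 17 had 4.46% of HNF4A and 6.11% of KLF5 peaks, chromosome 16 had 3.34% and 4.38%, and chromosome 22 had 2.01% and 2.90%. The difference lay below 0 with its interval on these 4 of the 23 chromosomes (17.4%). It lay above 0 on 7 of the 23 (30.4%), chromosomes 3, 4, 5, 6, 8, 10 and X. The highest ratio, 1.91, was that of chromosome X with 356 HNF4A and 186 KLF5 peaks, and chromosome 4 had 560 and 303.

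Other lists also differed in their share on chromosome 19. MYC had 5.36% of its peaks there, RFX2 5.97% and REST 5.46%, whereas CTCF had 3.47%, RAD21 3.25% and H3K4me1 3.66%. For each 100 H3K4me1 peaks on chromosome 19 there were 16.1 HNF4A and 22 KLF5 peaks, and on chromosome 4 there were 19.2 HNF4A and 10.4 KLF5 peaks. Of the HNF4A peaks 25.6% were shared on chromosome 19 and 11.4% on chromosome 4, and of the KLF5 peaks 18.9% and 20.8%, differences that were not tested. The differences between the classes were close to the plain ones when taken within chromosomes: HNF4A-only minus KLF5-only was −16.9 points for MYC, −9.10 for CTCF and 13.7 for H3K4me1.

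**Figure D5:**
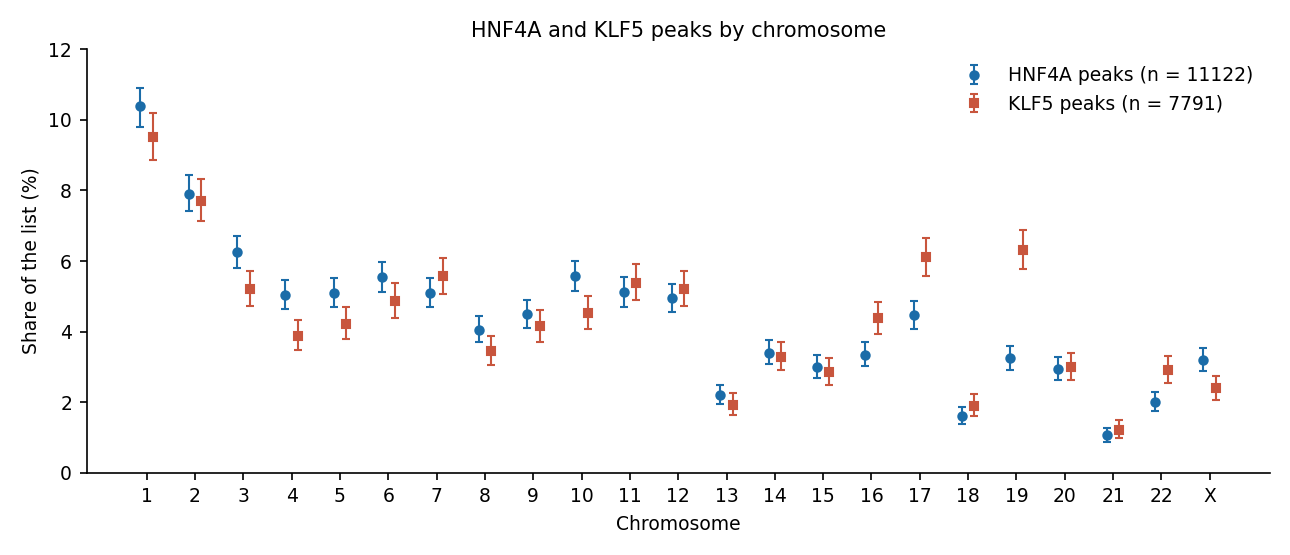
Share of all HNF4A peaks and of all KLF5 peaks (y axis, percent, points with 95% Clopper-Pearson intervals) on chromosomes 1 to 22 and X (x axis). Chromosome 19 has 3.24% of HNF4A and 6.31% of KLF5 peaks, and chromosome 4 has 5.04% of HNF4A and 3.89% of KLF5 peaks.

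At a scale of 1 Mb the lists overlapped broadly. Of 2850 bins that held a peak of any control list, 1759 had both factors, 479 had HNF4A and no KLF5 peak, 178 had KLF5 and no HNF4A peak, and 434 had neither. Spearman's rho of the counts per bin was 0.668, below that of either factor with H3K4me1 (0.845 for HNF4A, 0.774 for KLF5). It was also below that with MYC (0.753 and 0.791), RAD21 (0.767 and 0.734) and CTCF (0.676 and 0.693). With REST rho was lower (0.292 and 0.306). Bins share gene density and mappability and the lists differ in length, so these are descriptions. The following bins were chosen after their values were seen. The bin from 17000000 on chromosome 19 held 2 HNF4A and 24 KLF5 peaks, and that from 1000000 on chromosome 11 held 3 HNF4A and 24 KLF5 peaks. The bin from 60000000 on chromosome 11 held 14 HNF4A and 1 KLF5 peak, and that from 67000000 on chromosome 14 held 17 and 4.

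Single regions, in hg18 coordinates, show the 3 classes. The strongest shared site, ranked by the lower of both scores, lay at chr16:66052181-66054610. The HNF4A peak there had 179 tags, a score of 901 and a fold enrichment of 30.4, and the KLF5 peak had 151 tags, a score of 688 and a fold enrichment of 26.0. Their summits lay 7 bp apart, and peaks of RAD21, SMC3, NIPBL, H3K4me1, MYC and JUND were found there. The second, at chr14:104223558-104226755, had scores of 538 for HNF4A and 693 for KLF5 and H3K4me1 and MYC as its sole companions. The third, at chr1:199126850-199133898, was a broad region whose summits lay 3125 bp apart.

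The shared sites ranked 4 and 5 lay at chr2:9193334-9196872 and at chr16:84232144-84237621. On chromosome 2 the summits were 24 bp apart and strong peaks of CTCF, RAD21 and SMC3 were present, with scores of 2186, 1298 and 1219. On chromosome 16 the summits were 88 bp apart and neither cohesin subunit nor CTCF had a peak. No shared HNF4A peak had all 9 other targets and 3 had 8, of which the strongest by the lower of both scores, at chr1:33456651-33460299, lacked RFX2. Its HNF4A peak had a score of 224 and its KLF5 peak 135.

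The HNF4A-only sites described here were those with the highest scores among peaks with no KLF5 peak within 1000 bp. The first lay at chr8:102239353-102241591, with 428 tags, a score of 2251 and the nearest KLF5 summit 95435 bp away. The second, at chr17:16139966-16143444, had a score of 2207 and peaks of 6 other targets but not of H3K4me1. The third lay at chr1:226983715-226987523 (score 2134), the fourth at chr22:47516267-47519412 (1994, nearest KLF5 summit 869928 bp away) and the fifth at chr2:241192079-241195128 (1925). At the fifth both an HNF4A peak and a KLF5 peak were found in cells treated with siRNA against RAD21. The stronger of the 2 HNF4A-only peaks with 8 other targets, the most in that class, lay at chr5:140399271-140401291 and had a score of 74.5 amid strong SMC3, RAD21 and REST peaks, with scores of 2699, 1884 and 1846.

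The strongest KLF5-only site lay at chr8:145081412-145088618, with 635 tags, a score of 1669 and NIPBL as its sole companion under control siRNA. In cells treated with siRNA against RAD21 both an HNF4A peak and a KLF5 peak were found there. The second, at chr16:1902372-1904585, had the highest fold enrichment of the KLF5-only class, 43.9, and a score of 1254. Those ranked 3 and 4, at chr17:37063224-37066766 and at chr2:43079513-43081734, had scores of 1158 and 1157 and lay in H3K4me1 peaks. The fifth, at chr19:55409313-55411002, had a score of 1047, peaks of 7 other targets and an HNF4A summit 9212 bp away. The strongest of the 4 KLF5-only peaks with 8 other targets, the most in that class, lay at chr19:60369086-60370685, where the KLF5 score was 179 and the NIPBL score 1658.

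The libraries of cells treated with siRNA against the cohesin subunit RAD21, 7082 HNF4A and 1781 KLF5 peaks from 4993835 and 3286941 tags, were set beside the classes, with treatment and lower depth changing together. A siRAD21 HNF4A peak overlapped 42.4% of shared HNF4A peaks (40.1 to 44.6), 31.6% of HNF4A-only peaks (30.6 to 32.5) and 7.97% of KLF5-only peaks (7.29 to 8.69), with 33.4% over all HNF4A and 16.1% over all KLF5 peaks. The gap between shared and HNF4A-only peaks was 10.8 points (8.35 to 13.2), and 4.99 (2.90 to 7.08) within quintiles of score. A siRAD21 KLF5 peak overlapped 13.0% of shared KLF5 peaks (11.5 to 14.6), 9.29% of KLF5-only peaks (8.56 to 10.1) and 1.12% of HNF4A-only peaks (0.919 to 1.36), with 10.2% over all KLF5 and 3.13% over all HNF4A peaks. The gap between shared and KLF5-only peaks was 3.72 points (2.08 to 5.48), and 0.679 (−0.959 to 2.32) within quintiles of score.

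HNF4A and KLF5 also overlapped each other in the siRAD21 lists. Under RAD21 siRNA 473 of the 1781 KLF5 peaks overlapped an HNF4A peak (26.6%, 24.5 to 28.7), against 24.0% (23 to 24.9) under control siRNA. From the HNF4A side it was 6.65% (6.08 to 7.26) of 7082 peaks, against 16.8% (16.1 to 17.5) under control siRNA, with a KLF5 list of 1781 in place of 7791 peaks. Of the 473 shared siRAD21 KLF5 peaks, 144 (30.4%) lay at control peaks of both factors, 77 (16.3%) at a control HNF4A peak alone, 129 (27.3%) at a control KLF5 peak alone and 123 (26.0%) at neither.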

How the data were processed

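Per the submitters' processing notes, CASAVA 1.4, BWA and MACS 1.4 were used on the hg18 build. Per the file headers, the authors ran MACS 1.4.0rc2 per library, with IgG of the matching siRNA as control, at a p cutoff of 1e-05 with 1 tag kept per position. The deposited columns used were the peak positions and summits, the tag count per peak, the score −10 × log10 p, the fold enrichment (a linear ratio) and the FDR in percent. The headers name 9 of 10 columns, and the unnamed one was read as the FDR because as many of its values lie under 5 as the labels count peaks at that rate.

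Overlaps, summit distances and shares were computed in Python 3.11.15 with NumPy 2.4.6, pandas 2.3.3 and SciPy 1.17.1. Shares carry Clopper-Pearson intervals, plain differences Newcombe intervals, and differences over quintiles of score or over chromosomes Mantel-Haenszel estimates with Sato's variance. The code was tested on simulated peak lists, with finer strata of score than the quintiles used here. Groups came from the titles. Regions were named by a rule on score, margin (1000 bp) and number of targets, while the factors, targets and rules were chosen with earlier results of these data known. Genes and sequences under the peaks were not analysed here, because no genome or annotation of hg18 was used.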

Additional observations from a re-analysis of the deposited data

How the results depend on the processing

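Of 189 recomputed differences in target shares between classes, 184 kept their direction and their side of 0, and 18 of the 21 differences did so under every alternative tried. The exceptions were the CTCF difference below and the HNF4A-only minus KLF5-only differences for RAD21 at scores of at least 100 (−1.75) and for JUND with JUND peaks scoring at least 100 (0.00346); the cause was not tested. CTCF at shared KLF5 minus KLF5-only peaks, not clear of 0 in any setting, ranged from −0.919 to 1.75 and changed sign with CTCF peaks scoring at least 100 (−0.919), with classes by summits within 250 bp (−0.243) and with quintiles of score and 250 bp windows (−0.266). The KLF5 gap under RAD21 siRNA was 0.679 within quintiles of score. The share of HNF4A peaks overlapping KLF5 was 8.78% with both lists cut to scores of at least 100 and 14.7% for the 5000 strongest peaks of each list. It was 12% by summits within 250 bp and 14.0% within 250 bp of the summits. The share of KLF5 peaks overlapping HNF4A was 18.3%, 14.9%, 17.2% and 20% in these settings and 14.7% with both lists cut to an FDR under 5%. The chromosome 19 difference ranged from −3.35 to −3.34. Strata of scores pooled over both lists, strata of chromosome, strata combined with the 250 bp windows, the count without H3K4me1, NIPBL and JUND, and the strata for the RAD21 siRNA lists were chosen after seeing the data. No paired analysis was possible because each target and siRNA had 1 library. With 1 library per factor, neither culture nor antibody efficiency can be told apart from the factor.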
